A study of Schmidtea mediterranea with 6 samples.

Results

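Post-2c (transcript SmedASXL_007760) and Post-2d (SmedASXL_012639) are 2 of the 4 Post-2 paralogs of the planarian Schmidtea mediterranea, a freshwater flatworm that regenerates its whole body. They were picked by these transcript identifiers, which the study assigns to the genes, and both had a row among the 24578 transcripts that were tested along the anterior–posterior (A–P) axis. All 6 samples came from wild-type, intact animals of the asexual CIW4 strain, a clonal laboratory line, which were starved for 1 week and then cut across the body into 6 fragments. Zone 1 was the head tip, cut behind the photoreceptors, zone 2 ended behind the brain, and zone 3 ended at the front of the pharynx, the feeding tube of the animal. Zone 4 held the pharynx, zone 5 ran to the midpoint between the pharynx and the end of the tail, and zone 6 was the tail tip.

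The sample labels give 5 animals and other descriptions of the study give more, so that the number behind each library is in doubt. Collections of the same zone were pooled, and there was 1 library per zone. No replicate spread could be computed, and every p-value below compares these 6 libraries only. The deposited values are scores and not expression levels. A score is −log10 of the unadjusted p-value of the edgeR exact test of a zone against the other 5, with a plus sign for a zone above the others and a minus sign for a zone below them. A score of 1.30 in size is a p-value of 0.05, the threshold for a call. Fold changes, read counts and depth were not analysed here, so no score can be turned into a ratio of expression, and an abundant transcript reaches a high score more easily than a rare one. Because whole slices were sequenced, fewer cells of a type and less RNA per cell cannot be told apart.

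HOX genes encode transcription factors that bind DNA through a homeodomain and give regions of the body axis their identity in most bilaterian animals. Genes of the posterior class, called AbdB in insects and Post-1 and Post-2 in molluscs, annelids and flatworms, act in the hind part of the body, and Post-2d is the gene described in planarians before as AbdBa. In adult planarians, positional information is read continuously, since tissues turn over and regrow, and posterior identity depends on Wnt/β-catenin signalling, which is strongest toward the tail.

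Both paralogs scored lowest in the head tip, higher in every step along the axis and highest in the tail tip. Post-2c had scores of −19.07 in the head tip, −13.76 in the brain zone, −5.21 in front of the pharynx, −1.29 in the pharynx zone, 2.55 in the anterior tail and 14.71 in the tail tip. It was called lower in all 3 zones anterior to the pharynx and higher in both zones posterior to it. Post-2d had −11.09 in the head tip, −10.06 in the brain zone, −6.77 in front of the pharynx, −2.07 in the pharynx zone, 0.88 in the anterior tail and 20.51 in the tail tip. It was called lower in zones 1 to 4 and higher in the tail tip alone. Both genes changed sign between the pharynx and the anterior tail.

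**Figure D1:**
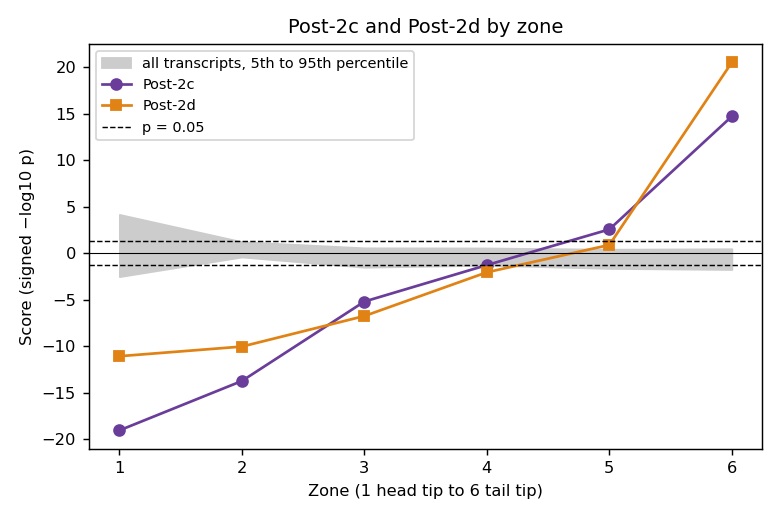
Scores (signed −log10 p, vertical axis) of Post-2c (circles) and Post-2d (squares) in the 6 zones from head tip to tail tip, 1 library per zone, with the 5th to 95th percentile of all 24578 transcripts in grey and dashed lines at the threshold of a call. Both lines lie far below the grey band in zones 1 to 3, cross 0 between zones 4 and 5 and end at 14.71 (Post-2c) and 20.51 (Post-2d) in zone 6.

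In the tail tip both genes were called higher, with unadjusted p-values of 1.97e-15 for Post-2c and 3.06e-21 for Post-2d (edgeR exact test), where 0.915% of all transcripts were called higher. Post-2c had the 8th highest score of zone 6 and Post-2d the 3rd. In the anterior tail, zone 5, Post-2c was called higher with an unadjusted p-value of 0.00282 (edgeR exact test) and ranked 24 from the highest score, against 0.325% of all transcripts called. Post-2d missed the threshold there with p = 0.133 by the same exact test, at a rank of 208 from the highest. Zone 5 had 80 higher calls, beside 225 in zone 6, and its 95th percentile of scores was 0.41, which is below the score of Post-2d. With Benjamini-Hochberg adjustment over all transcripts of the comparison the zone 6 calls of both genes stayed, against 0.321% of all transcripts, and the zone 5 call of Post-2c was lost (adjusted p = 0.0849, edgeR exact test), against 0.0773%.

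Toward the head the calls went the other way. In zone 1 the unadjusted p-values were 8.45e-20 for Post-2c and 8.08e-12 for Post-2d (edgeR exact test), and 9.4% of all transcripts were called lower there. Post-2c had the 136th lowest score of zone 1 and Post-2d the 221st, so that by rank neither stood as far out at the head end as in the tail tip. In the brain zone the p-values were 1.74e-14 for Post-2c and 8.77e-11 for Post-2d by the same exact test, against 1.81% of transcripts called lower. Their places there were 151 from the lowest for Post-2c and 178 for Post-2d. By rank, then, Post-2d stood lower in the brain zone than in the head tip, and its rise in every step holds for scores and not for ranks. In the prepharyngeal zone 3 the p-values were 6.10e-06 for Post-2c and 1.70e-07 for Post-2d (edgeR exact test), and 5.94% of all transcripts were called lower. All 6 of these calls held when p was adjusted by Benjamini-Hochberg, the weakest being that of Post-2c in zone 3 (adjusted p = 0.000346, edgeR exact test). The adjusted lower calls took in 6.06% of all transcripts in the head tip, 1.3% in the brain zone and 2.66% in front of the pharynx.

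In the pharynx zone, as in the anterior tail, the calls of the genes differed. Post-2c had p = 0.0513 in zone 4, just outside the threshold, and Post-2d had p = 0.00857 (edgeR exact test), against 5.01% of all transcripts called lower. Adjusted by Benjamini-Hochberg, neither was past it, with 0.688 for Post-2c and 0.161 for Post-2d, against 2.57% of transcripts called. Missing the threshold does not show that zone 4 is level with the rest. The zone code that the file sets beside the scores lists Post-2c as 6.5, specific to zones 6 and 5 with zone 6 first, and Post-2d as 6. In the whole file 28 transcripts carried the code 6.5 and 184 the code 6, and the difference between the codes of the paralogs rests on the zone 5 call alone.

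The rise in score was not even along the axis, and its anterior steps were larger in Post-2c. From zone 5 to zone 6, across the tail, the score of Post-2c rose by 12.16 and that of Post-2d by 19.64, the largest step of each gene. From zone 1 to zone 2 it rose by 5.31 for Post-2c and 1.04 for Post-2d, and from zone 2 to zone 3 by 8.54 and 3.29 in the same order. In score, Post-2c thus climbed at both ends of the body, and Post-2d mostly at the tail. Each step joins different comparisons, whose scores over all transcripts had an SD from 1.45 in zone 5 to 4.29 in zone 4. By rank from the lowest, Post-2c moved only from 136 in zone 1 to 151 in zone 2. The steps are therefore not steps in expression. From zone 3 to zone 4 the steps were 3.92 for Post-2c and 4.70 for Post-2d, and from zone 4 to zone 5 they were 3.84 and 2.94.

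**Figure D2:**
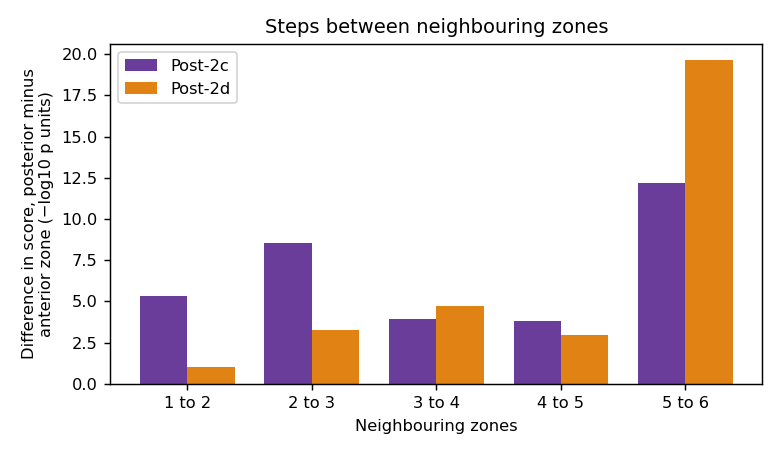
Difference in score between neighbouring zones (posterior minus anterior zone, in −log10 p units, vertical axis) for Post-2c (left bars) and Post-2d (right bars), 1 library per zone. All 10 steps are above 0, and the step from zone 5 to zone 6 is the largest for both genes, 12.16 for Post-2c and 19.64 for Post-2d.

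Set side by side, the difference in score, Post-2c minus Post-2d, was −7.98 in zone 1 and −3.70 in the brain zone. It was 1.56 in front of the pharynx, 0.78 in the pharynx zone and 1.68 in the anterior tail, and −5.81 in the tail tip. The largest score in size was that of the head tip for Post-2c and that of the tail tip for Post-2d. With 1 library per zone there is no spread against which these differences could be tested. The fold change of a gene and its abundance both enter its score and cannot be told apart here.

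Pearson's r between score and zone number was 0.99 for Post-2c and 0.89 for Post-2d, and Spearman's rho was 1 for both. These are descriptions over 6 zones whose comparisons share all libraries. Scores that rise in every step were found for 261 of 24578 transcripts (1.06%), and among the 12 HOX transcripts with a row for Post-2c, Post-2d, Hox4b and the second Lox5a transcript, SmedASXL_066865.

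The other HOX genes give the setting in which these paralogs stand. Of 12 HOX genes with an identifier of this transcriptome, 11 had a row, Post-2c and Post-2d among them. Of the 9 others, 5 were called higher in zone 6 at an unadjusted p-value under 0.05, against 0.915% of all transcripts, and these were Hox4a, Hox4b, Lox5a, Post-2a and Post-2b. After Benjamini-Hochberg adjustment 2 of the 9 were called, against 0.321% of all transcripts, Hox4b, named in the anterior class, and Lox5a, named in the central class. The study could not place Hox4b with confidence in its phylogeny, and its name rests on BLAST hits. In zone 1, 2 of the 9 were called lower with and without adjustment, again Hox4b and Lox5a, against 9.4% of all transcripts without it and 6.06% with it. One other, Lox4, was called higher in zone 1 without adjustment (p = 0.0332, edgeR exact test), against 16.3% of all transcripts, and not with it. The 10 other HOX transcripts had a median score of 1.59 in zone 6 and −0.41 in zone 1, beside medians over all transcripts of −0.00378 in zone 6 and 0 in zone 1. The homeobox genes En, Eve and Dll-1, which lie outside the HOX family, had a row each, and 0 of the 3 were called higher in zone 6 (edgeR exact test, unadjusted p-value under 0.05), where so few transcripts were called that a count of 0 sets them apart from nothing. Eve was called higher in zone 1 with a score of 2.46 (unadjusted p = 0.00346, adjusted p = 0.0241, edgeR exact test), against 11.3% of all transcripts after adjustment.

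**Figure D3:**
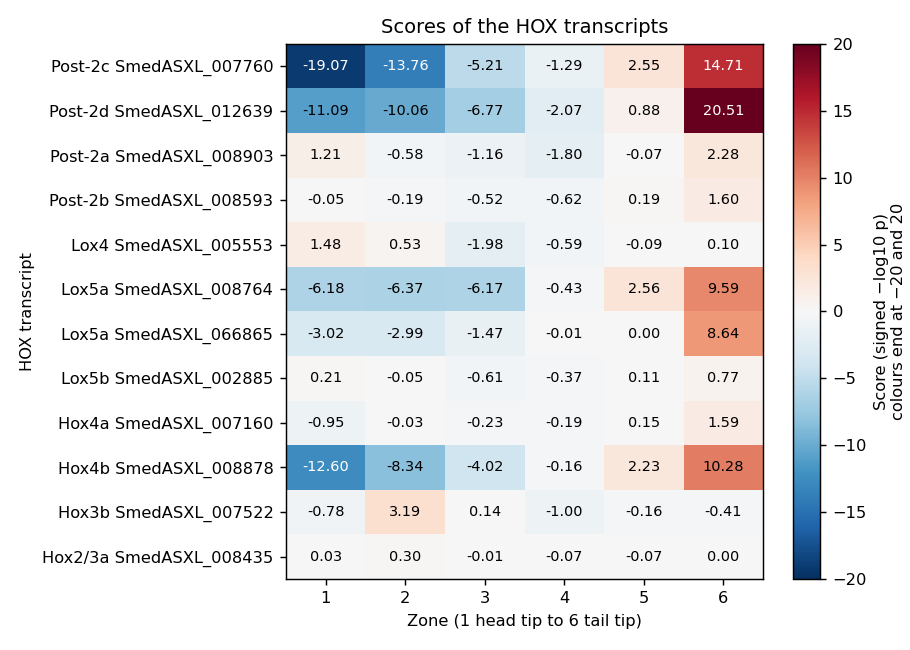
Scores (signed −log10 p, printed in each cell) of the 12 HOX transcripts with a row (vertical) in the 6 zones (horizontal), 1 library per zone, with red for higher and blue for lower than in the other zones. Post-2c, Post-2d, Hox4b and both Lox5a transcripts are blue in zones 1 to 3 and red in zone 6, and Post-2a and Post-2b stay between −1.80 and 2.28.

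The closest relatives by name, Post-2a and Post-2b, had much smaller scores. Post-2a had scores of 1.21 in the head tip, −0.58 in the brain zone, −1.16 in front of the pharynx, −1.80 in the pharynx zone, −0.07 in the anterior tail and 2.28 in the tail tip. Post-2b had −0.05 in the head tip, −0.19 in the brain zone, −0.52 in front of the pharynx, −0.62 in the pharynx zone, 0.19 in the anterior tail and 1.60 in the tail tip. Both scored lowest in the pharynx zone and not in the head. Post-2a was called lower there (unadjusted p = 0.0159, adjusted p = 0.271, edgeR exact test), against 5.01% of all transcripts. Post-2b was not (unadjusted p = 0.240, edgeR exact test). Post-2b had the signs of Post-2c and Post-2d in all 6 zones, negative in zones 1 to 4 and positive in zones 5 and 6. That pattern was found in 1.14% of all transcripts, and only the zone 6 score of Post-2b was past the threshold. Post-2a had another sign in zones 1 and 5. All 4 Post-2 genes had their highest score in zone 6, in the order Post-2d, Post-2c, Post-2a and Post-2b. The share of all transcripts with their highest score there was not computed. After Benjamini-Hochberg adjustment the zone 6 calls of Post-2a (adjusted p = 0.116) and Post-2b (adjusted p = 0.409, edgeR exact test) were lost. The Euclidean distance over the 6 scores was 27.6 between Post-2c and Post-2a and 27.3 between Post-2c and Post-2b, and 24.6 between Post-2d and Post-2a and 24.9 between Post-2d and Post-2b. The distance between Post-2c and Post-2d themselves was 10.8. A transcript with 6 scores of 0 would lie 28.4 from Post-2c and 26.4 from Post-2d, so that the distances to Post-2a and Post-2b mostly show how small their scores were. In shape, Pearson's r over the 6 zones was 0.29 between Post-2c and Post-2a and 0.67 between Post-2c and Post-2b, and 0.57 between Post-2d and Post-2a and 0.86 between Post-2d and Post-2b, a description of comparisons that share all libraries.

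By this distance Post-2d was the 4th nearest of all transcripts to Post-2c, and Post-2c the 5th nearest to Post-2d. Nearest to Post-2c was SmedASXL_019398, at a distance of 6.95, which carries no name in the sources used here, and then Hox4b at 9.67 and SmedASXL_067457 at 10.76. SmedASXL_019398 had scores of −18.74 in the head tip, −11.02 in the brain zone, −3.31 in front of the pharynx, 0.04 in the pharynx zone, 2.78 in the anterior tail and 8.77 in the tail tip. It was close to Post-2c in the head tip and below it in the tail tip. For Post-2d the nearest were SmedASXL_067457 at 4.61, SmedASXL_051625 at 4.74, SmedASXL_012003 at 4.91 and SmedASXL_010139 at 6.51, none of them named. Of these, SmedASXL_067457 and SmedASXL_051625 were among the 5 nearest of both paralogs. The first Lox5a transcript was 16th nearest to Post-2c and 7th to Post-2d, and Hox4b was 2nd nearest to Post-2c and 6th to Post-2d.

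**Figure D4:**
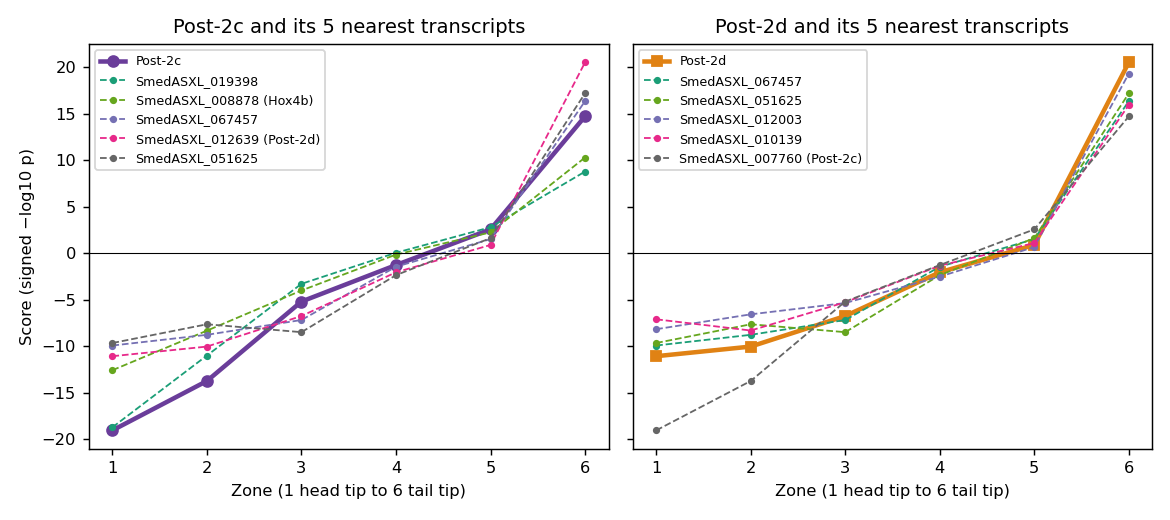
Scores (signed −log10 p, vertical axis) by zone for Post-2c (left, thick line) and Post-2d (right, thick line), each with the 5 transcripts at the smallest Euclidean distance over the 6 scores (dashed), 1 library per zone. The nearest transcripts of Post-2c spread from −18.74 to −9.68 in zone 1, and those of Post-2d other than Post-2c from 15.94 to 19.31 in zone 6.

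Likeness by shape alone, which sets the size of the scores aside, gave another order. Among the 6947 transcripts called in at least 1 zone, Hox4b had the highest Pearson's r with Post-2c (0.998), followed by SmedASXL_075613, SmedASXL_069118, SmedASXL_013363 and SmedASXL_003061 at 0.992 to 0.994. SmedASXL_014750 had the highest with Post-2d (0.999), followed by SmedASXL_010139, SmedASXL_067457, SmedASXL_012003 and SmedASXL_016414 at 0.994 to 0.997. The paralogs had r = 0.94 with each other, which placed Post-2d 48th in shape to Post-2c among the called transcripts. An r of at least 0.95 was reached by 36 transcripts with Post-2c and 35 with Post-2d. These are descriptions over 6 zones that share their libraries.

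Only SmedASXL_014750 and SmedASXL_016131 scored above Post-2d in zone 6, at 28.63 and 24.57. Both had lower scores than Post-2d in zones 1 to 4 too, with −19.11 for SmedASXL_014750 and −19.67 for SmedASXL_016131 in the head tip. The places between Post-2d and Post-2c were held by SmedASXL_012003 at 19.31, SmedASXL_051625 at 17.18, SmedASXL_067457 at 16.34 and SmedASXL_010139 at 15.94. Of the 8 transcripts from the top of zone 6 down to Post-2c, Post-2c had the highest score in zone 5 and in zone 4. Nothing in the sources used here names the 6 others.

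The predicted proteins were compared with the same question of likeness in mind. The study named the genes by sequence, from BLAST hits and phylogeny. Some likeness among the Post-2 homeodomains was therefore given beforehand, and the identities below are descriptions. The listed protein of Post-2d has 316 residues, with 197 before the homeodomain and 59 after it. That of Post-2c has 157 residues, with 95 before the homeodomain and 2 after it, and it does not begin with methionine, so that its first residues may be missing. The homeodomain was located by the motif WFQNRR, a signature of its recognition helix that occurred once in each protein, with the tryptophan numbered 48. Over the 60 positions Post-2c and Post-2d were identical at 45 (75%). In a global alignment (BLOSUM62) 29 of the 96 other aligned positions were identical (30.2%), a share that was 53.4% when gaps were made cheaper.

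Post-2c had the lowest homeodomain identities of the 4 Post-2 paralogs. It was identical to Post-2a at 42 of 60 positions (70%) and to Post-2b at 41 (68.3%), and Post-2d was identical to Post-2a at 46 (76.7%) and to Post-2b at 49 (81.7%). Post-2a and Post-2b were identical to each other at 52 (86.7%). Post-2d therefore shared more homeodomain positions with Post-2b, whose scores were far smaller, than with Post-2c. Against the post2 homeodomain of the limpet Lottia gigantea, a mollusc, 40 of 59 positions (67.8%) were identical in Post-2c and 45 of 59 (76.3%) in Post-2d.

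Of the 15 positions at which Post-2c and Post-2d differ, Post-2d had the limpet residue at 6 and Post-2c at 1, and neither had it at the other 8. Numbering homeodomain positions from 1 and giving the Post-2d residue first, 12 of the differences lay before position 42. Among them were T1E, K3T and K6R at the start of the homeodomain and the neighbouring G22N, N23T and T24E. At positions 3 and 6 Post-2d had the limpet residue. From position 42 on, a stretch of 19 positions with the recognition helix, there were 3: V47I, T56H and I59N. The effect of these differences on DNA binding was not tested. The glutamine Q50, a residue of that helix that contacts DNA in HOX proteins, was the same in both paralogs. At 4 positions Post-2c and Post-2d shared a residue found in neither Post-2a nor Post-2b, and 3 of these, with the limpet residue first, were T9S, F20Y and S35A. The last was position 60, which the limpet sequence does not cover.

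**Figure D5:**
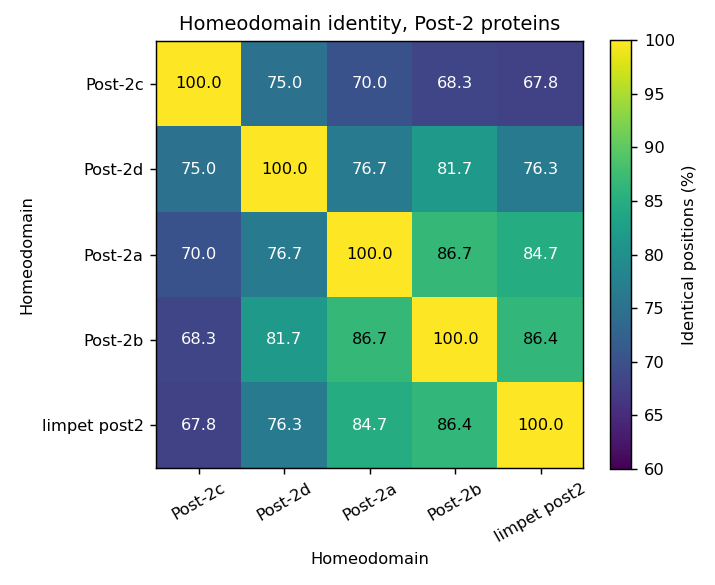
Share of identical homeodomain positions (%, printed in each cell) between the 4 Post-2 proteins and limpet post2, over 60 positions, or 59 where the limpet is involved. Apart from the cell of Post-2c with itself, the row of Post-2c runs from 67.8% to 75%, below the 86.7% of Post-2a and Post-2b.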

How the data were processed

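Single-end reads were mapped by the authors to the asexual transcriptome (Bowtie2 2.2.4), transcripts of very low CPM were removed, and each zone was set against the other 5 by the edgeR exact test after TMM normalization. The version of edgeR is not given in the sources used here, nor is its dispersion estimate. Scores deposited by the authors are signed −log10 unadjusted p-values of those comparisons, used as deposited together with the zone code, because the file holds no other measurement. The code obtained again from the scores named the same zones in all 24578 rows, and 0 value columns were left without a sample.

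The p-value was taken back from the size of each score and adjusted by Benjamini-Hochberg within each comparison. Likeness was Euclidean distance and Pearson's r over 6 scores. Alternatives were other call rules, other likeness measures, leaving out zones, and other alignment settings. Named genes were the paralogs, the listed HOX genes with a row, the 5 nearest transcripts by each measure, and those above either paralog in zone 6; those below either in zone 1 were only counted. The predicted proteins, listed in a supplement of the study, were aligned with Biopython 1.88. Post-1, whose identifier belongs to another transcriptome, has no score here. Members and lists were chosen with earlier results of these data known. The analysis steps were run on simulated scores with planted gradients and tail tip transcripts, among unchanged ones drawn independently for each zone. That run checks the steps and not the results above, whose zones share libraries. Python 3.11.15, numpy 2.4.6, pandas 2.3.3, scipy 1.17.1 and matplotlib 3.10.9 were used.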

Additional observations from a re-analysis of the deposited data

How the results depend on the processing

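The calls of both paralogs in zones 1, 2, 3 and 6 held under all 4 other call rules. Post-2c was higher in 1 zone and not 2 under Benjamini-Hochberg adjustment within each comparison, and likewise 1 over all 6 comparisons, since the zone 5 call was lost (adjusted p = 0.0505 over all 6). Post-2d was lower in 3 zones and not 4 under every adjustment tried, since zone 4 was lost. HOX transcripts higher in zone 6 numbered 8, and 5 under either Benjamini-Hochberg adjustment. With ranks among all transcripts in place of scores, r with zone number was 0.84 for Post-2c and 0.84 for Post-2d, whose ranks did not rise from zone 1 to zone 2; Spearman's rho for Post-2d was 1, above its r of 0.89. By Pearson's r over all 24578 transcripts, called or not, Post-2d was 233rd in likeness to Post-2c and Post-2c 161st to Post-2d. With r = 0.94 the paralogs were alike in shape too, but many more transcripts came before them by shape than by distance. Without zone 6, Post-2c was 11th by distance to Post-2d. Of the 261 transcripts that rose in every step, 45 were lower in zone 1 and higher in zone 6. The homeodomain identity was between 75% and 81.4% over the alignment settings; outside it, identity was 30.2%, or 22.6% in a local alignment and 53.4% with a gap opening penalty of 5, settings read there after seeing the data. No paired analysis was possible because there was 1 library per zone. What limits every value is that depth and replicate spread were not analysed here.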

Other observations

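The profiles nearest to the reverse of the paralogs, with each score multiplied by minus 1, were head transcripts and lay further off than the nearest tail transcripts. The distance from the reversed Post-2c profile was 17.3 for SmedASXL_081558, with scores of 16.17 in zone 1, −9.99 in zone 5 and −12.58 in zone 6. From the reversed Post-2d profile it was 16.4 for SmedASXL_004272, with 4.37 in zone 1, 4.74 in zone 2 and −11.39 in zone 6. SmedASXL_010328 was among the 3 nearest to the reverse of both paralogs. Scores that fell in every step were found for 210 transcripts, beside the 261 that rose.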
